A study of Homo sapiens with 6 samples.

Results

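The genes described here are 31 listed granulocyte and monocyte genes: transcription factors of the myeloid lineage, growth factor receptors, integrins, subunits of the NADPH oxidase, granule proteins, the calprotectin pair and surface or nuclear markers. All probe sets that the platform annotation assigns to a single one of these genes were taken, which gave 50 probe sets for 30 of the 31 genes, out of 54675 probe sets on the array and 19775 genes with a probe set of their own. CD33 had no probe set under the annotation used here and was not analysed.

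RNA was measured on 6 Affymetrix arrays in K562, a human chronic myeloid leukaemia cell line. The labels give 3 independent experiments, each with 1 array of cells nucleofected with an siRNA labelled RNAi8 and 1 array of cells nucleofected with scrambled RNA, at up to 200 nM. After 24 h the cells of experiments 1 and 3 received all-trans retinoic acid (ATRA) and those of experiment 2 received DMSO, the solvent. So 2 siRNA and 2 scrambled arrays carried ATRA, and 1 siRNA and 1 scrambled array carried DMSO. Every array therefore comes from a nucleofected culture of the same line, and no culture without nucleofection is among the groups.

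Myeloid maturation runs under a set of transcription factors that first open the programme and then switch on receptors for colony-stimulating factors, adhesion molecules, the oxidase that makes superoxide, and the proteins stored in granules. ATRA, the ligand of retinoic acid receptors, drives acute promyelocytic leukaemia cells and HL-60 cells towards granulocytes, with CD11b, CD38 and C/EBP epsilon among the genes known to rise there. K562 cells carry BCR-ABL1 and are known mainly for erythroid and megakaryocytic potential. The comparisons ask whether the myeloid genes moved with ATRA or with the siRNA.

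All levels and differences given here are on the log2 scale of RMA, and each gene is represented by its probe set with the highest mean unless another one is named. The median over all probe sets and arrays was 5.99, and a gene is called dim here when its mean lies below that; a dim level was not shown to be above background. The 2 arrays of experiment 3 stood apart from the other 4. Their correlation with arrays of other experiments was at most 0.982 across all probe sets, against at least 0.996 among the arrays of experiments 1 and 2. The gap between the 3' and 5' control probe sets of ACTB was 2.98 and 3.36 log2 units in experiment 3 and 0.63 to 0.92 in experiments 1 and 2, a larger gap being a sign of shorter transcripts or labelled products. A gene was checked for each agent. CYP26A1, the retinoic acid hydroxylase induced by retinoids, had 11.46, 11.21, 12.21 and 11.85 in ATRA arrays, against 5.75 and 5.72 in DMSO arrays, a difference of 5.94 (95% interval 4.75 to 7.14). PRAME, an antigen of leukaemia cells that the series is about, had 12.13, 12.14 and 12.10 in siRNA arrays of experiments 1, 2 and 3, against 13.00, 12.99 and 12.70 in scrambled arrays, a difference of -0.78 (95% interval -1.02 to -0.53). Neither passed the adjusted threshold in the fits used here. Both passed in limma once the experiment was a block, fixed for PRAME (adjusted p 0.00100) and random for CYP26A1 (adjusted p 0.0017). The random block takes the arrays of the lone DMSO experiment as partial replicates. It is therefore a weaker check than the paired fit of PRAME. Of 11 erythroid markers measured, 10 lay above the median of all probe sets, as did 7 of 11 megakaryocytic markers, against 65.1% of all genes, so the megakaryocytic share was near that of all genes.

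Most of the myeloid genes were at low levels in these cells. Of the 30 genes, 17 were dim, and 14 of those lay below the median on all 6 arrays. Of all genes tested, 34.9% were dim. Of the 13 genes that were not dim, 9 lay less than 1 log2 unit above the median of all probe sets. The other 4, CEBPB, CEBPD, CYBA and LYZ, lay higher.

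**Figure D1:**
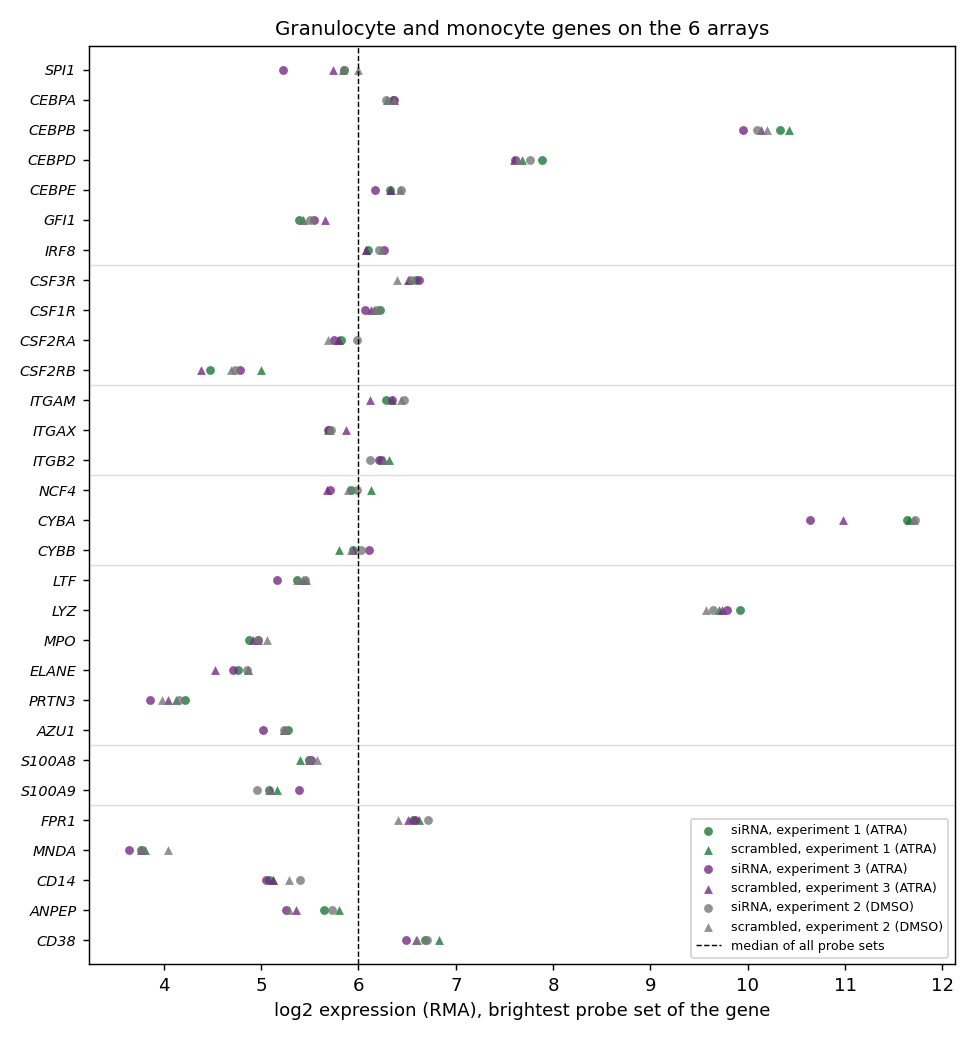
Log2 expression (x axis) of the 30 measured genes (rows, grouped by role) on each array. Circles are siRNA arrays and triangles scrambled arrays, colours mark the experiment, and the dashed line is the median of all probe sets (5.99). CEBPB, CEBPD, CYBA and LYZ lie well right of the line, and the 2 arrays of experiment 3 lie left of the others for CYBA.

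Among the transcription factors, CEBPB, which encodes C/EBP beta, a factor of monocytes and of emergency granulopoiesis, had 10.33, 10.09 and 9.95 in siRNA arrays of experiments 1, 2 and 3, against 10.42, 10.20 and 10.13 in scrambled arrays (probe set 212501_at). The siRNA array was the lower one in each experiment, by 0.09 to 0.18, and the groups overlapped. CEBPD, for C/EBP delta, a factor induced by cytokines, had 7.88, 7.77 and 7.61 in siRNA arrays, against 7.68, 7.63 and 7.60 in scrambled arrays. Its other probe set, 213006_at, was dim, with 3.29, 3.22 and 3.15 in siRNA arrays, against 3.47, 3.53 and 3.29 in scrambled arrays, so the probe sets ran in opposite directions. CEBPA, for C/EBP alpha, which commits progenitors to the granulocyte and monocyte lineage, had 6.36, 6.28 and 6.36 in siRNA arrays, against 6.29, 6.36 and 6.36 in scrambled arrays, the smallest spread of the 30 genes (SD 0.04 over the 6 arrays). C/EBP epsilon, encoded by CEBPE and needed for late granulocyte maturation, had 6.32, 6.44 and 6.17 in siRNA arrays, against 6.33, 6.43 and 6.32 in scrambled arrays. IRF8, a factor that favours monocytes, had 6.10, 6.21 and 6.26 in siRNA arrays, against 6.07, 6.25 and 6.08 in scrambled arrays. The groups overlapped for all 3 of these genes. SPI1, which encodes PU.1, the factor that myeloid cells depend on, was dim, with 5.85, 5.85 and 5.23 in siRNA arrays, against 5.84, 6.00 and 5.74 in scrambled arrays. Its lowest array was the siRNA array of experiment 3. GFI1, a repressor that favours granulocytes, was dim too and ranged from 5.39 to 5.66.

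The receptors were close to the median or below it. CSF3R, the receptor of granulocyte colony-stimulating factor, had 6.59, 6.54 and 6.62 in siRNA arrays, against 6.52, 6.40 and 6.51 in scrambled arrays. All 3 siRNA arrays were above all 3 scrambled arrays, against 2% of all genes, with means of 6.58 ± 0.04 against 6.48 ± 0.07 (SD, n = 3 each). The other CSF3R probe set, 203591_s_at, was dim and overlapped. It had 5.19, 5.41 and 5.30 in siRNA arrays, against 5.36, 5.31 and 5.31 in scrambled arrays. CSF1R, the receptor of macrophage colony-stimulating factor, had 6.23, 6.19 and 6.06 in siRNA arrays, against 6.16, 6.16 and 6.13 in scrambled arrays. CSF2RA, the alpha chain of the GM-CSF receptor, was dim, with 5.82, 5.98 and 5.75 in siRNA arrays, against 5.80, 5.69 and 5.79 in scrambled arrays. The groups of CSF1R and of CSF2RA overlapped. CSF2RB, the beta chain shared with the receptors of IL-3 and IL-5, ranged from 4.38 to 5.00, with the lowest and the highest value both in scrambled arrays.

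ITGAM encodes CD11b, the integrin chain used most often to score granulocyte maturation under ATRA, and its probe sets gave opposite orders. Probe set 205785_at had 6.28, 6.34, 6.34 and 6.12 in ATRA arrays (siRNA and scrambled of experiment 1, then of experiment 3), against 6.47 and 6.44 in DMSO arrays. Probe set 205786_s_at had 6.04, 6.18, 6.16 and 6.39 in ATRA arrays, against 5.71 and 5.79 in DMSO arrays. With the first probe set all 4 ATRA arrays lay below both DMSO arrays, and with the second all 4 lay above them. The second probe set was also lower in the siRNA array than in the scrambled array of each experiment, by a mean difference of -0.15 (adjusted p 1). ITGB2, the CD18 chain that pairs with CD11b, had 6.23, 6.11 and 6.21 in siRNA arrays, against 6.31, 6.26 and 6.25 in scrambled arrays. With this probe set, 236988_x_at, the siRNA arrays were lower without overlap, against 1.54% of all genes. The other ITGB2 probe sets were dim and differed by -0.11 for 1555349_a_at and by 0.03 for 202803_s_at, the latter in the opposite direction. ITGAX, the CD11c chain, was dim and ranged from 5.68 to 5.87.

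The RefSeq promoter windows of ITGAM, CEBPE and CD38 are shown because these genes are known to rise with retinoic acid in other myeloid leukaemia cells and so stand closest to the retinoid question. Each window covers 250 bases before and 50 bases after the start site in GRCh38.p14 and is written 5′ to 3′ on the strand of the gene. ITGAM lies at chr16:31259725-31260024 on the plus strand, CEBPE at chr14:23119206-23119505 on the minus strand and CD38 at chr4:15778078-15778377 on the plus strand. Capitals mark matches, on either strand, of the PU box GAGGAA and of the retinoid half-site AGGTCA with its variants, which are AGTTCA as well as GGGTCA and also the form GGTTCA. The C/EBP element TTGCNNAA had no match in these 3 windows.
ITGAM: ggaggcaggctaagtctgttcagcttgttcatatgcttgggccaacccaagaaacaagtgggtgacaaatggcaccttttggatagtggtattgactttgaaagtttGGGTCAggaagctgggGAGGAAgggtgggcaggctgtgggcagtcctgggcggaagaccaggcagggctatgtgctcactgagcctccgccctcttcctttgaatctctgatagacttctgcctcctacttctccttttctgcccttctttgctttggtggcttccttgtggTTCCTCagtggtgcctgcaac
CEBPE: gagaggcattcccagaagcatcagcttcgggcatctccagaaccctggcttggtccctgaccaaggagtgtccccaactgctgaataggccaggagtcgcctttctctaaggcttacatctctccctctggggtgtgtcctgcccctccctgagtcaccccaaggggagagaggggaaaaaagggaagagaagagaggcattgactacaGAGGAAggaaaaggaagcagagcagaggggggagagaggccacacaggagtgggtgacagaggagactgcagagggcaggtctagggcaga
CD38: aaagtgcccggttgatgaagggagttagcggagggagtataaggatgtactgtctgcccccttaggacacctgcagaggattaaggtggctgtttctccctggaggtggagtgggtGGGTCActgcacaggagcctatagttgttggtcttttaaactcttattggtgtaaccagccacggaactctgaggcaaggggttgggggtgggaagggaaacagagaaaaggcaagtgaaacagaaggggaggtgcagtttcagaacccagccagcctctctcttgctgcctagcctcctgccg
The ITGAM window holds a PU box on the gene's strand at -127, another on the opposite strand at 30, and a half-site at -143, counted from the start site. The CEBPE window holds a PU box at -41 and the CD38 window a half-site at -134. Of the 30 genes, 21 have at least 1 window in the table used here, 33 windows in all, and 13 of the 21 have a PU box, 12 a half-site and 6 a C/EBP element in at least 1 window. Over all 35116 windows the shares were 27.9% for the PU box, 38.6% for the half-sites and 10.5% for the C/EBP element, counted per window and so not on the same footing as genes with several windows. No window of the 21 genes held a direct repeat of these half-sites spaced by 5 or by 2 bases, the arrangements that retinoic acid receptors are known to bind, against 0.0883% and 0.0399% of all windows. These matches are letters in a window of fixed length and describe no binding.

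Of the oxidase subunits, CYBA, which encodes the p22phox chain and is used by many cell types, had the largest spread of the 30 genes (SD 0.46 over the 6 arrays). Its probe set 203028_s_at had 11.63, 11.65, 10.64 and 10.98 in ATRA arrays, against 11.72 and 11.71 in DMSO arrays. The low values were both those of experiment 3. Its other probe set, 229445_at, had 6.70, 6.70, 6.54 and 6.56 in ATRA arrays, against 6.75 and 6.70 in DMSO arrays. CYBB, the gp91phox chain that is more typical of phagocytes, was dim, with 5.94, 6.03 and 6.10 in siRNA arrays, against 5.80, 5.92 and 5.94 in scrambled arrays. By this probe set, 203923_s_at, it was higher with siRNA in each experiment, and the groups overlapped. The other CYBB probe sets, also dim, differed by 0.02 for 203922_s_at, -0.05 for 233538_s_at and -0.02 for 217431_x_at. NCF4, the p40phox chain, was dim and ranged from 5.67 to 6.13.

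Among the members that encode granule proteins, only LYZ was not dim. It encodes lysozyme, a granule protein of both granulocytes and monocytes. Its probe set 213975_s_at had 9.92, 9.70, 9.78 and 9.74 in ATRA arrays, against 9.64 and 9.57 in DMSO arrays. All 4 ATRA arrays were above both DMSO arrays. The other LYZ probe set, 1555745_a_at, had 7.91, 7.78, 5.81 and 5.74 in ATRA arrays, against 7.87 and 7.82 in DMSO arrays. There the arrays of experiment 1 lay beside the DMSO arrays, and those of experiment 3 lay below the rest, by a difference of -2.07 from the mean of the other experiments. The primary granule proteins among the members were dim on all 6 arrays. MPO, the myeloperoxidase, ranged from 4.87 to 5.06, and ELANE, neutrophil elastase, from 4.52 to 4.87. PRTN3, proteinase 3, ranged from 3.86 to 4.21, and AZU1, azurocidin, from 5.02 to 5.27. This does not hold for all genes of such proteins. Outside the members, CTSG and DEFA4 were not dim, with means of 6.98 and 6.44. LTF, the lactoferrin of secondary granules, had 5.36, 5.45 and 5.16 in siRNA arrays, against 5.46, 5.36 and 5.43 in scrambled arrays, with overlap. The calprotectin subunits, abundant in the cytosol of neutrophils and monocytes, were dim as well: S100A8 ranged from 5.40 to 5.57, and S100A9 had 5.08, 5.16, 5.39 and 5.09 in ATRA arrays, against 4.96 and 5.08 in DMSO arrays.

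**Figure D2:**
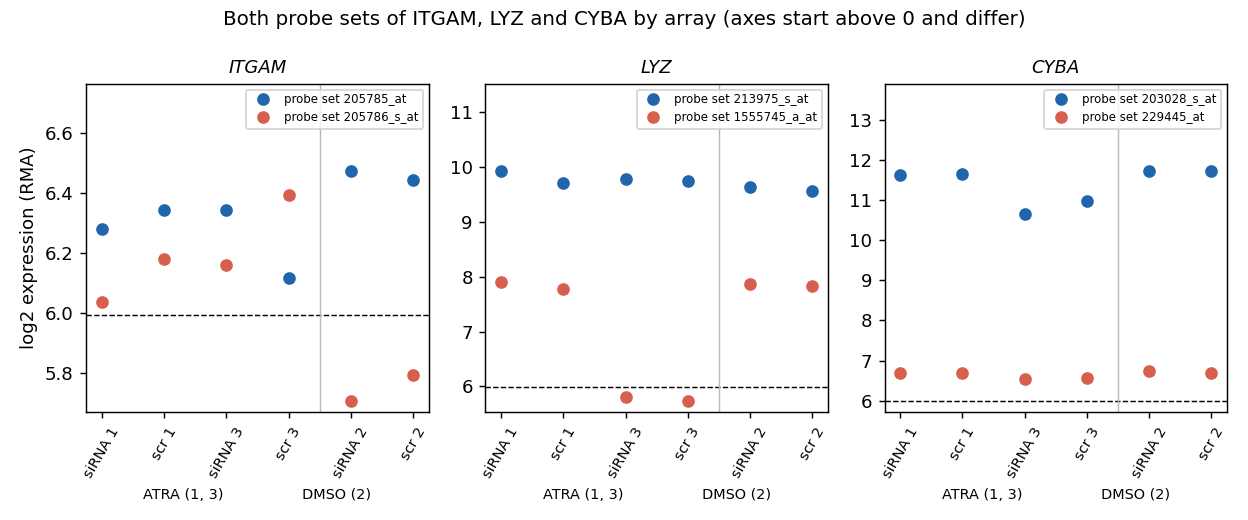
Log2 expression (y axis, a different range in each panel) of both probe sets of ITGAM, LYZ and CYBA on the 4 ATRA arrays (left of the grey line) and the 2 DMSO arrays (right), with "scr" for scrambled RNA and a dashed line at the median of all probe sets (5.99). The ITGAM probe sets run in opposite directions, and LYZ probe set 1555745_a_at is low on both arrays of experiment 3 alone.

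Among the surface and nuclear markers, CD38, an ectoenzyme that rises with retinoic acid in HL-60 cells, had 6.68, 6.83, 6.49 and 6.59 in ATRA arrays, against 6.71 and 6.60 in DMSO arrays. FPR1, the formyl peptide receptor of phagocytes, had 6.56, 6.62, 6.58 and 6.51 in ATRA arrays, against 6.71 and 6.41 in DMSO arrays. The ATRA and DMSO arrays overlapped for both. CD14, the monocyte co-receptor for lipopolysaccharide, was dim, with 5.08, 5.13, 5.05 and 5.13 in ATRA arrays, against 5.40 and 5.28 in DMSO arrays, all 4 ATRA arrays being lower. ANPEP, the aminopeptidase CD13, was dim, with 5.65, 5.80, 5.26 and 5.35 in ATRA arrays, against 5.72 and 5.29 in DMSO arrays. MNDA, a nuclear protein of myeloid cells, was dim, with 3.77, 3.81, 3.64 and 3.77 in ATRA arrays, against 3.77 and 4.04 in DMSO arrays. The arrays of ANPEP and of MNDA overlapped between the treatments.

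With ATRA, no myeloid gene passed the test in either direction. None of the 30 genes had an adjusted p below 0.05 in the limma fit of the 2 ATRA experiments against the DMSO experiment, where 0% of all 19775 genes passed. CYP26A1 did not pass either, at an adjusted p of 0.995, since a single DMSO experiment leaves 1 residual degree of freedom; the intervals therefore say more than the calls. At an unadjusted p below 0.05, 1 of the 30 was counted, CD14, against 1.19% of all genes. CD14 differed by -0.24 (95% interval -0.45 to -0.04, adjusted p 0.995). By its brightest probe set, no member differed by 0.5 log2 units or more, against 4.03% of all genes. Counted by probe set, 1 of the 50 did, against 5.12% of all probe sets. That was LYZ 1555745_a_at at -1.04 (adjusted p 0.995). Against the DMSO experiment, this probe set differed by -0.0042 in experiment 1 and by -2.08 in experiment 3.

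The differences of the 30 genes with ATRA ran from -0.49 for CYBA (95% interval -1.71 to 0.73) to 0.18 for LYZ (-0.63 to 0.99), with 10 above 0 and 20 below. Their median was -0.04, against -0.01 over all genes, of which 9452 lay above 0 and 10323 below. For 29 of the 30 genes the whole interval lay within 1 log2 unit of 0, CYBA being the exception. The share of all genes with such an interval was not counted. Of the 30 genes, 17 were dim and not shown to be above background. For those, a narrow interval does not show that the transcript was unchanged. All 4 ATRA arrays were above both DMSO arrays for 1 gene, LYZ, against 13.5% of all genes, and below both for 4 genes, CEBPE, ITGAM, CYBA and CD14, against 13.2%. The share of members below was 13.3%, close to that of all genes. Counted by probe set, 2 of the 50 were above, LYZ 213975_s_at and ITGAM 205786_s_at, against 11.1% of all probe sets, and 9 were below, against 11.8%.

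Among the genes named above as rising under ATRA in other myeloid leukaemia cells, CEBPE averaged 6.33 and 6.25 in the ATRA experiments 1 and 3, against 6.43 in the DMSO experiment, a difference of -0.15 (95% interval -0.46 to 0.16). For CD38 the difference was -0.01 (95% interval -0.44 to 0.42). ITGAM differed by -0.19 (95% interval -0.50 to 0.12) with probe set 205785_at. With probe set 205786_s_at the difference was 0.44, made of 0.36 in experiment 1 and 0.53 in experiment 3, and the adjusted p over all probe sets was 0.995. Averaged over both probe sets, ITGAM differed by 0.13, so its direction depends on the probe set chosen. Of the members with the next smallest p-values, S100A9 differed by 0.16 (95% interval -0.09 to 0.41), SPI1 by -0.26 (-0.77 to 0.25) and MNDA by -0.16 (-0.38 to 0.06).

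**Figure D3:**
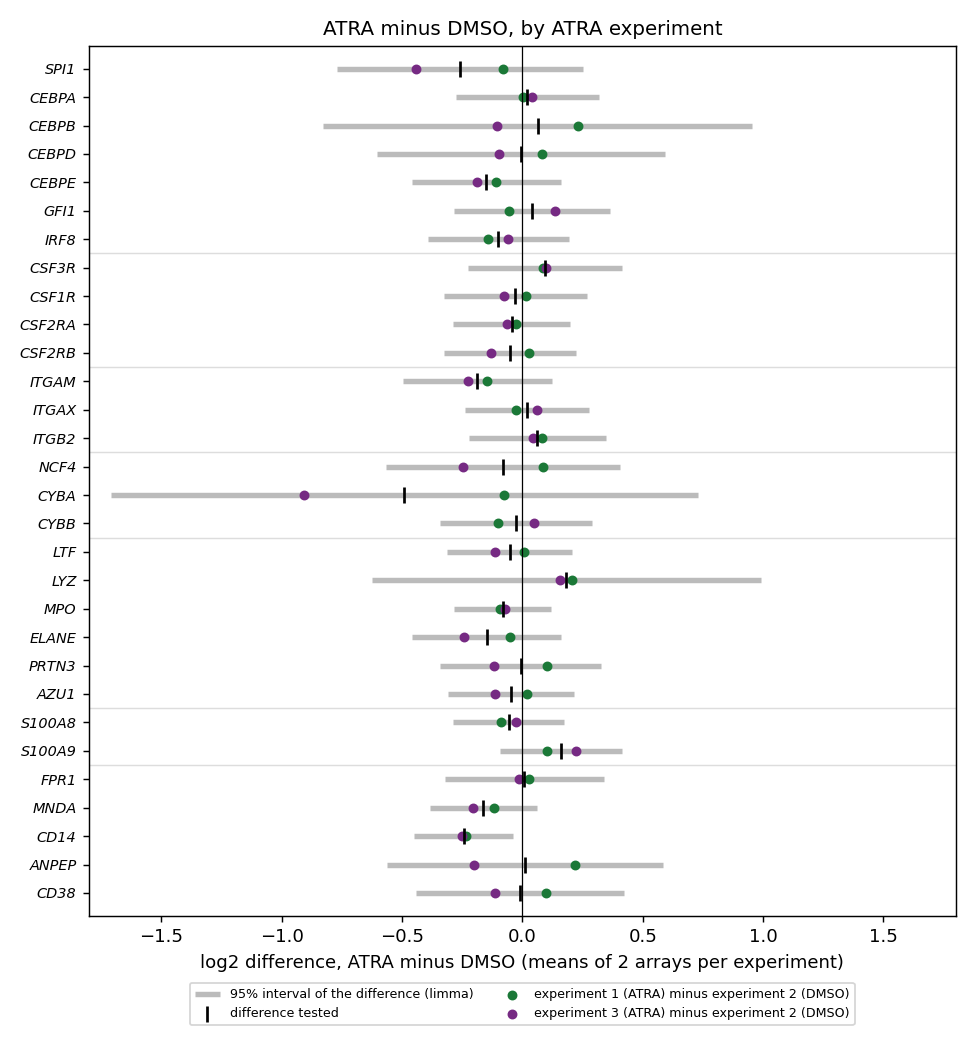
Log2 difference of ATRA minus DMSO (x axis) for the 30 genes. Points are the 2 ATRA experiments, each as the mean of its arrays minus the mean of the DMSO arrays, the tick is the difference tested and the grey bar its 95% interval from limma. The interval of CD14 is the only one that leaves out 0, and CYBA of experiment 3 lies furthest left.

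Each ATRA experiment was also set against the DMSO experiment by itself. Against the DMSO experiment, experiment 1 had 16 of the 30 genes above 0 and 14 below, with a median of 0.0035 and a range from -0.24 for CD14 to 0.23 for CEBPB. Experiment 3 had 8 above and 22 below, with a median of -0.10, against -0.01 over all genes, and a range from -0.91 for CYBA to 0.22 for S100A9. Over all genes, 9648 lay above 0 and 10084 below for experiment 3, and 9116 above and 10590 below for experiment 1. With the arrays taken as replicates, 0 of the 30 genes passed for experiment 1, against 0.182% of all genes, and 1 passed for experiment 3, CYBA at an adjusted limma p of 0.0027, against 29.3% of all genes. These p-values rest on the spread between arrays of an experiment and not on the spread between experiments, so they do not test ATRA. Experiment 3 is the one with the large 3' to 5' gaps, and 35 of the 50 probe sets, 70.0%, averaged lower in it than over experiments 1 and 2, against 53% of all probe sets. The part of these gaps in the lower values was not tested. In bulk samples, fewer cells of a type and less RNA per cell cannot be told apart.

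With the siRNA, no member passed either. None of the 30 genes had an adjusted p below 0.05 in the limma fit of 3 siRNA arrays against 3 scrambled arrays with treatment as a covariate, against 0% of all genes, and at an unadjusted p below 0.05 there were 0 members, against 1.29%. With the experiment as a block, again 0 of 30 had an adjusted p below 0.05, against 0.0253% of all genes. At an unadjusted p below 0.05 the blocked fit counted 2 members, SPI1 and CEBPB, a share of 6.67% against 6.41% of all genes. SPI1 differed by -0.22, with a 95% interval of -0.43 to -0.0042 and an adjusted p of 0.771 in that fit. CEBPB differed by -0.12, with a 95% interval of -0.23 to -0.02 and an adjusted p of 0.771. The size of the SPI1 difference came mostly from experiment 3, at -0.52, against -0.15 in experiment 2 and 0.02 in experiment 1.

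The siRNA differences of the 30 genes ran from -0.22 for SPI1 (95% interval without the block -0.63 to 0.20) to 0.13 for CYBB (-0.05 to 0.32), with 14 above 0 and 16 below and a median of -0.0037, against 0.0056 over all genes. Over all genes, 10465 siRNA differences lay above 0 and 9310 below. All 30 intervals of the fit without the block lay within 1 log2 unit of 0, and their median half-width was 0.21. The share of all genes was not counted here either, and the same limit holds for dim genes. The siRNA arrays were all above the scrambled arrays for 1 gene, CSF3R, against 2% of all genes, and all below for 1 gene, ITGB2, against 1.54%. CSF3R differed by 0.11 (95% interval -0.04 to 0.25) and ITGB2 by -0.09 (-0.23 to 0.05). Higher with siRNA in all 3 experiments were 4 genes, CEBPD, CSF3R, CYBB and LYZ, against 13.1% of all genes, and lower in all 3 were 3 genes, CEBPB, ITGB2 and MNDA, against 11.9%. The members' shares, 13.3% and 10.0%, lay near these. MNDA differed by -0.15 (95% interval -0.32 to 0.02) and FPR1 by 0.10 (-0.11 to 0.32).

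**Figure D4:**
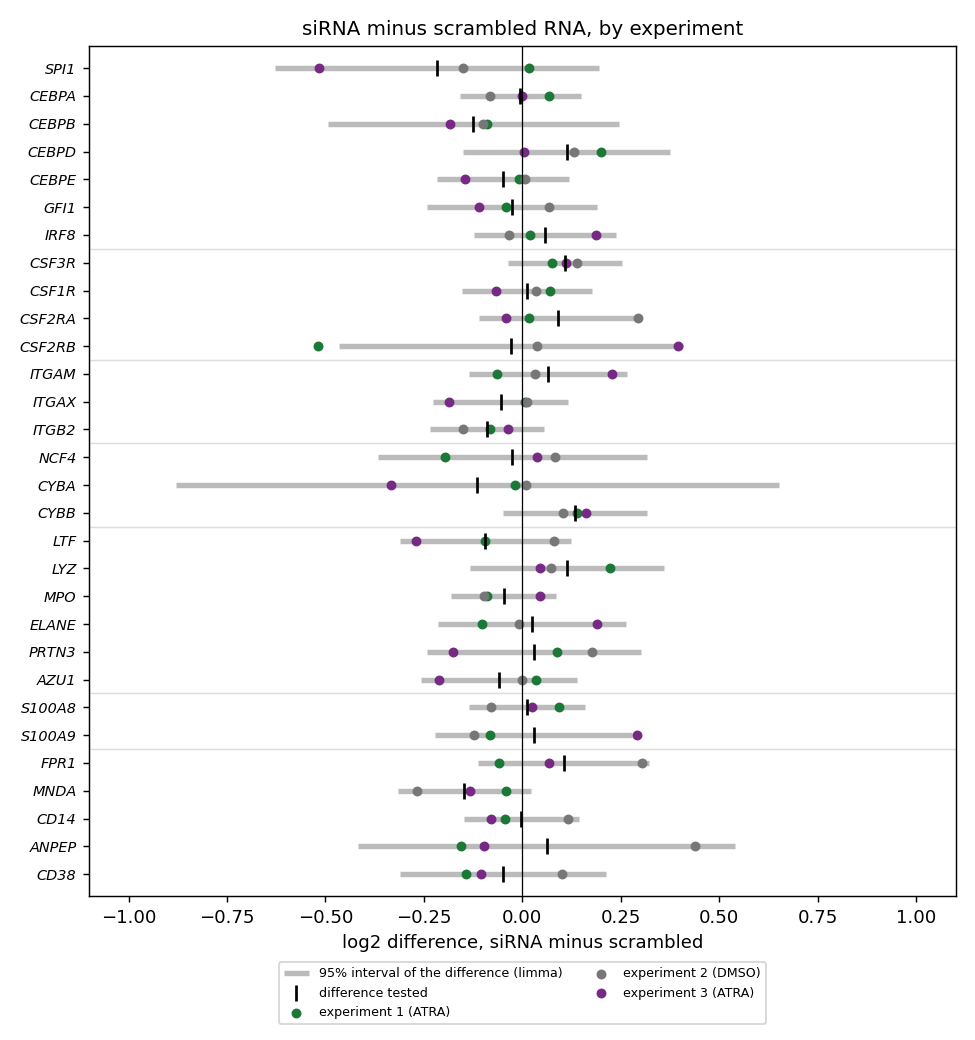
Log2 difference of siRNA minus scrambled RNA (x axis) for the 30 genes. Points are the 3 experiments, the tick is the difference tested and the grey bar its 95% interval from limma without the block. All intervals include 0 and stay within 1 log2 unit of it, and the point furthest left is CSF2RB in experiment 1, at -0.52.

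Whether the siRNA acted differently under ATRA and under DMSO was tested as the difference of both siRNA effects. None of the 30 genes passed the adjusted threshold in limma, against 0% of all genes, and 0 had an unadjusted p below 0.05, against 1.32%. The differences ran from -0.56 for ANPEP to 0.23 for S100A9, with 11 above 0 and 19 below, and a median of -0.06, against 0.0035 over all genes. Over all genes, 10087 lay above 0 and 9688 below. For 24 of the 30 genes the interval lay within 1 log2 unit of 0, a count that was not made over all genes. By the dim probe set 234458_at, ANPEP was lower with siRNA in both ATRA experiments, by -0.16 and -0.10, and higher with siRNA in the DMSO experiment, by 0.44. With the experiment as a block ANPEP was the 1 member with an unadjusted p below 0.05, against 3.31% of all genes, at a 95% interval of -0.91 to -0.21 and an adjusted p of 0.998. The other ANPEP probe sets, also dim, had differences of siRNA effects of the opposite sign, 0.10 for 202888_s_at and 0.22 for 234576_at. CSF2RA had a difference of -0.31 (95% interval -0.62 to 0.01), FPR1 of -0.30 (-0.70 to 0.10), LTF of -0.26 (-0.71 to 0.18) and CD14 of -0.18 (-0.44 to 0.09). The CSF2RA value is that of the dim probe set 211287_x_at. Its other probe sets, also dim, had -0.04 for 207085_x_at, 0.04 for 211286_x_at and -0.07 for 210340_s_at.

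Probe sets of a gene were also set side by side. Of the 14 genes with more than 1 probe set, 11 had probe sets of opposite sign with the siRNA, against 61.8% of all genes with several probe sets, and 8 had them with ATRA, against 60.9%. None of the 50 probe sets passed an adjusted threshold in any of the 3 comparisons when each was tested by itself. At an unadjusted p below 0.05, 1 was counted with the siRNA, the dim CEBPD probe set 213006_at at -0.21, against 1.2% of all probe sets. With ATRA there were 0, against 0.835%, and for the difference of siRNA effects 0, against 1.29%. Over the 6 arrays the members' SD had a median of 0.11, against 0.12 over all genes.

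Other genes of the same programmes were read in the same way. Of all genes tested, 34.9% were dim. Of 21 other granulocyte genes measured, 11 were dim, and with ATRA 5 had a difference above 0 and 16 below, with a median of -0.07. Over all genes, 9452 lay above 0 with ATRA and 10323 below. The 21 other monocyte genes had 11 dim members and the same split, 5 above and 16 below, with a median of -0.09, against -0.01 over all genes. Of 24 other myeloid signalling genes, 3 were dim, and 10 had a difference above 0 with ATRA and 14 below. No gene of these lists passed the adjusted threshold in limma in any of the 3 comparisons. At an unadjusted p below 0.05 with ATRA, each of these lists had 1 gene, against 1.19% of all genes. KLF4, a factor that favours monocytes, had 6.73, 6.56, 6.88 and 6.68 in ATRA arrays, against 6.17 and 6.07 in DMSO arrays, a difference of 0.59 (adjusted p 0.995). KIT, the stem cell factor receptor that is lost as myeloid cells mature, had 5.61, 5.32, 5.53 and 5.38 in ATRA arrays, against 6.60 and 6.27 in DMSO arrays, with a dim mean and a difference of -0.97 (adjusted p 0.995). All 4 ATRA arrays were above both DMSO arrays for KLF4 and below both for KIT, against 13.5% and 13.2% of all genes. MMP8, the neutrophil collagenase, was dim, at -0.20 (adjusted p 0.995). MS4A3, the brightest of the other granulocyte genes, differed by -0.825, with an unadjusted p above 0.05. It had 10.50, 10.38, 9.91 and 10.02 in ATRA arrays, against 11.02 and 11.04 in DMSO arrays. With the siRNA, TCN1, a secondary granule protein, was dim at 0.26, and KIT was at 0.25, both with an adjusted p of 1. Both had an unadjusted p below 0.05, against 1.29% of all genes. For the difference of siRNA effects, TLR2 and TLR8, both receptors of innate immunity, were at -0.56 and -0.40, with an adjusted p of 1. Their unadjusted p was below 0.05, against 1.32% of all genes.

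Markers of other blood cell types were read as well. Of 10 mast cell, basophil and eosinophil markers, 7 were dim. With the siRNA, PRG2 at 0.27 and IL5RA at 0.17 had an unadjusted p below 0.05, against 1.29% of all genes. Of 13 lymphocyte markers, 7 were dim, against 34.9% of all genes. Among those not dim, CD3D averaged 10.08 and CD4 6.91. A level that is not dim therefore does not by itself show that a lineage programme was expressed. Erythroid markers had 2 differences above 0 with ATRA and 9 below, with a median of -0.14. Megakaryocytic markers also had 2 above and 9 below, with a median of -0.04. Over all genes, 9452 lay above 0 with ATRA and 10323 below, with a median of -0.01. The erythroid marker ALAS2, at -0.44 with ATRA, had an unadjusted limma p below 0.05, against 1.19% of all genes (adjusted p 0.995). All 4 ATRA arrays were below both DMSO arrays for ALAS2, against 13.2% of all genes. None of these markers passed the adjusted threshold in any of the 3 limma comparisons.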

How the data were processed

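The 6 arrays are Affymetrix HG-U133 Plus 2.0, with 1 RNA sample of K562 cells on each. The authors deposited log2 values that they had normalized by RMA with BRB-ArrayTools, per the series' design text, which names no version or settings. Array medians lay between 5.96 and 6.02, and the number of arrays limits the precision.

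In the platform annotation 41091 of 54675 probe sets had a single gene, 1801 had several and 11721 were not listed, beside 62 controls. The brightest probe set stood for each of 19775 genes, dim ones included. Differences were tested with limma 3.58.1 under R 4.3.3, by lmFit and by eBayes with its trend option, and the fits were tested on simulated data. The p-values were adjusted by Benjamini-Hochberg over all genes, at a threshold of 0.05. Intervals are 95% and moderated. The siRNA test took all 6 arrays, with treatment as a covariate. ATRA was tested on experiment means, 2 against 1. For the difference of siRNA effects 4 groups were fitted, and the lone array of each DMSO group was taken to have the spread of the ATRA groups.

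Arrays of an experiment were taken as pairs in the fits with the experiment as a block and in the differences by experiment. The main siRNA fit and the main fit of the difference of effects had no term for the experiment and so were not paired. The labels call the experiments independent, and the siRNA and scrambled arrays of an experiment deviated together, with correlations of 0.679, 0.795 and 0.883. Members and lists were chosen with earlier results of these data known. Values on every array are given for members that were not dim and for the 6 with the smallest unadjusted p in each comparison. Outside the members, up to 3 genes per list were named by smallest unadjusted p, and PRAME and CYP26A1 as checks. CTSG and DEFA4 were named for their levels. The counts by probe set, their shares over all probe sets and the choice of genes for the probe-set plot were added after values had been seen. Promoter sequences are from RefSeq.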

Additional observations from a re-analysis of the deposited data

How the results depend on the processing

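The 90 member differences were tested again under 10 siRNA settings, 8 ATRA settings and 4 settings of the difference of effects. Of 609 such values, 608 kept their side of the threshold, and the exception was CYBA with ATRA, which passed when experiment 1 was left out. There 1 member passed, and 5788 of all genes, on the spread between arrays of an experiment. In the main fits no gene passed, CYP26A1 and PRAME included, and the settings counted next passed at most 36 genes. Members were thus nearly certain to stay below the threshold, and the count of 608 does not show that the results are stable. Without experiment 3 the ATRA count over all genes was 36, and it was 3 with the experiment as a random block. Of the 609 values, 73 had the opposite sign to the main one, none of them with an unadjusted p below 0.05. The siRNA count over all genes was 5 with the replicate block, 0 to 2 when an experiment was left out, and 1 to 2 when the block and a left-out experiment were combined. The paired fit with the block changed no call of a member. The cause of the changed counts was not tested. The difference of siRNA effects without experiment 1 or 3 left no residual degree of freedom; of these 60 values with no test, 9 had the opposite sign. With 1 DMSO experiment, treatment and experiment cannot be told apart.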
